A study of Mus musculus with 4 samples.

Results

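Interferon-stimulated antiviral genes are the genes that a cell switches on after it senses a virus or receives an interferon signal. The 40 genes described here were chosen by name, from genes known as interferon targets with antiviral roles. Earlier results of these data were known when they were chosen. All 40 were found among the 23735 loci of the deposited expression table. RNA had been sequenced from mouse peritoneal macrophages of C57BL/6 background, collected from mice 6 weeks old, 3 days after an injection of 3% thioglycolate, whose irritation recruits such cells. The cells were then cultured with 10% serum and 1% antibiotic, and the labels name no virus, interferon or other stimulus in culture. All animals were labelled ApoE-/-, which means that they lack the lipoprotein gene Apoe. The Ch25h_WT group (ApoE-/-/Ch25h+/+) kept the gene for cholesterol 25-hydroxylase, and the Ch25h_KO group (ApoE-/-/Ch25h-/-) was labelled as lacking it. Each group held 2 libraries. The labels name 12 mice per group and duplicate samples, without saying how mice were shared out between libraries, so p-values measure only how far these libraries differ, and some of that may be technical.

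Type I interferons bind the receptor made of Ifnar1 and Ifnar2, and the receptor's kinases activate transcription factors that join Irf9 on a DNA element named the interferon-stimulated response element. The genes behind that element encode proteins that detect foreign nucleic acid, degrade RNA, stop translation, tag proteins with the ubiquitin-like ISG15, or block viruses at membranes. Macrophages express many of these genes at a low basal level without infection. Ch25h belongs to the same class of interferon-induced genes, and its product, an oxysterol, is known both as an antiviral lipid and as a regulator of cholesterol synthesis. The comparison asked which transcripts differ in macrophages when Ch25h is deleted on the ApoE-/- background.

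The promoters of the set are described before its expression. RefSeq (build GRCm38.p6) held a promoter window, from 250 bases before to 50 bases after the transcript start, for 31 of the 40 genes. The core of the response element, GAAANNGAAA on either strand, lay in 17 of these 31 (54.8%), against 3.99% of all 27025 genes with a window. A core of the gamma-activated site, TTCNNNGAA on either strand, lay in 7 of 31 (22.6%), against 9.55% of all genes, and matches of the 2 motifs can share bases. The genes were chosen as known interferon targets, so high shares may follow from that choice and are no independent support. Among genes whose Ch25h_KO values lay above both Ch25h_WT values, 10 of 18 held the first motif, among genes whose groups overlapped 6 of 10 did, and among genes with both values below 1 of 3 did. The motif was thus found in genes of each kind. Zbp1, Usp18, Oas2, Mx1, Mx2, Rtp4, Parp14, Dhx58 and Ifi204 have no window in that table. A match is a run of letters and was not tested for binding.

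The windows of 7 genes from the OAS, ISG15, Ifit and restriction groups with a mean difference above 0, and of Slfn8, whose values were lower, are shown to let the elements be compared, with capitals marking every base of a match. Each is written along the gene's own strand, so a match on the opposite strand appears as its reverse complement.
Isg15 (chr4:156200860-156200911, minus strand): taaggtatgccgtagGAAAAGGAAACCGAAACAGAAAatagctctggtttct
Oas1a (chr5:120907526-120907560, minus strand): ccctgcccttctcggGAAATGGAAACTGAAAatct
Oas1g (chr5:120887614-120887646, minus strand): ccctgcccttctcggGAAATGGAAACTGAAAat
Rsad2 (chr12:26456548-26456587, minus strand): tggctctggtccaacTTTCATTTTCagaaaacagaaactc
Ifit1 (chr19:34640770-34640828, plus strand): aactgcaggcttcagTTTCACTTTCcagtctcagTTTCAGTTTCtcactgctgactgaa
Ifit3 (chr19:34583358-34583431, plus strand): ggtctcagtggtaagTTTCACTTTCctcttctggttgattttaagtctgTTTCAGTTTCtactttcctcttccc
Ifitm3 (chr7:141010716-141010742, minus strand): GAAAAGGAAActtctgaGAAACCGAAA
Slfn8 (chr11:83020834-83020873, minus strand): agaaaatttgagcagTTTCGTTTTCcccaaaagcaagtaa

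Isg15 carried 3 overlapping matches, the farthest starting 78 bases before the transcript start. Oas1a and Oas1g, neighbouring copies of the same enzyme gene, carried the same run of 2 overlapping matches within the last 20 bases before their starts. In Ifitm3 both matches lay inside the transcribed sequence, from transcript position 3. Herc6, Oasl1, Oasl2, Cmpk2, Sp100 and Samd9l had a window and no match in it.

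Depth and labels were checked first. Low values in the table fall on whole multiples of a common step, from which about 9520000 to 12400000 fragments per library were implied, and between 13813 and 13970 loci were above 0. Values are FPKM, fragment counts scaled to transcript length and to library size. Ch25h was 63.3 and 65.3 FPKM in Ch25h_WT and 4.25 and 5.53 FPKM in Ch25h_KO, in the direction of the labels. Apoe was 614 and 610 FPKM against 3683 and 3373 FPKM, although all animals were labelled as lacking it, so Ch25h and whatever differs at Apoe cannot be told apart in any result on these libraries. In bulk RNA, a change in the share of a cell type and a change in RNA per cell cannot be told apart either.

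Of the 40 genes, 32 averaged 1 FPKM or more across libraries and entered the test (limma on log2(FPKM + 1) over 10074 loci, Benjamini-Hochberg adjusted p under 0.05). In Ch25h_KO, 1 gene rose, the nucleic acid sensor Zbp1, and 0 fell with limma. The share called was 1 of 32 (3.12%), against 0.437% of all tested loci (0.228% higher and 0.208% lower). At unadjusted p under 0.05, 8 of 32 were higher (25.0%, against 9.38% of all loci) and 4 of 32 were lower (12.5%, against 11.5%). Both Ch25h_KO values lay above both Ch25h_WT values in 17 of 32 genes (53.1%), against 23.4% of all loci, and below them in 5 of 32 (15.6%), against 30.3%. The median log2 difference was 0.11 over the 32 genes and -0.014 over all tested loci, with 22 genes on the higher side and 10 on the lower (45.7% and 54.3% of all loci). Of the 8 genes below the filter, Oas3, Ifit2, Ifit3, Mx1 and Cmpk2 had both Ch25h_KO values above both Ch25h_WT values, and Ddx60, Mx2 and Ifi44 overlapped. The share of 23.4% covers tested loci only, so no share of low loci stands beside these genes. Ifit2, Ifit3 and Mx1 also rest on few fragments. These counts describe the set, and no test compared it with other genes. Because earlier results of these data were known when the set was chosen, the shares beside all loci are no independent support.

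**Figure D1:**
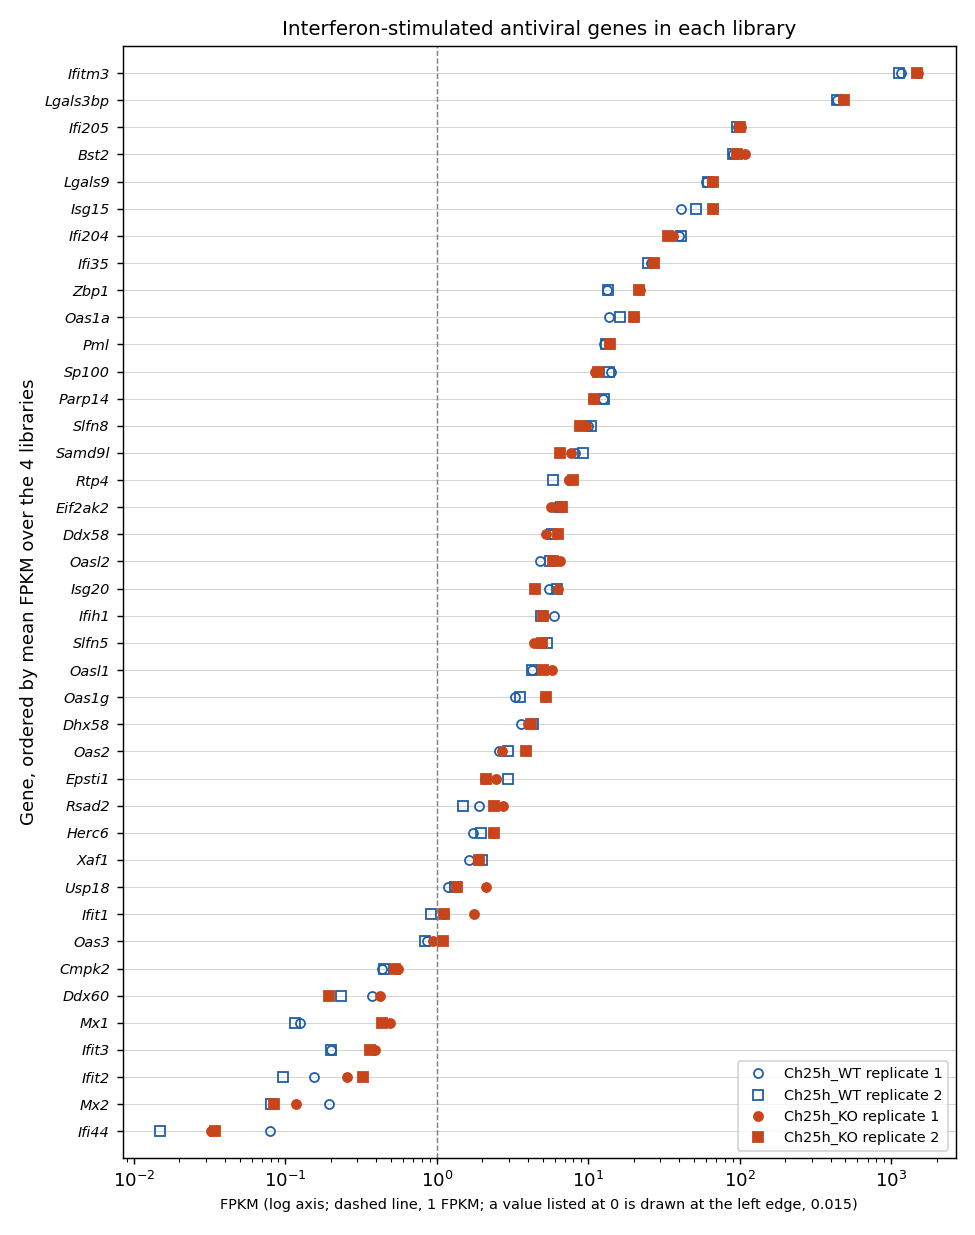
FPKM of the 40 genes in each of the 4 libraries on a log axis (open symbols Ch25h_WT, filled symbols Ch25h_KO; circles replicate 1, squares replicate 2), ordered by mean. Levels ran from Ifi44, listed at 0 in a library, to Ifitm3 at 1130 FPKM or more in every library, and for Zbp1, Isg15, Oas1g and Mx1 the filled symbols lie to the right of the open ones.

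Levels differed widely among the 40 genes. Ifitm3, a membrane protein that stops enveloped viruses from fusing, and Lgals3bp, a secreted glycoprotein that binds galectins, together held 75.1% to 78.0% of the summed FPKM of the set. The sum was 2100 and 2094 FPKM in Ch25h_WT and 2553 and 2537 FPKM in Ch25h_KO. Without these 2 genes it was 506 and 522 against 577 and 559 FPKM. The Ch25h_KO sum was above the Ch25h_WT sum either way, and most of the summed difference lay in Ifitm3.

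Among the nucleic acid sensors, Zbp1 stood apart from the helicases. Zbp1, which binds Z-form nucleic acid and can start necroptosis, was 13.4 and 13.5 FPKM in Ch25h_WT and 22.0 and 21.6 FPKM in Ch25h_KO. The groups were far apart relative to their spread, at a ratio of 1.62 and a log2 difference of 0.66 (SE 0.051, limma adjusted p = 0.035), and Zbp1 ranked 24 of 10074 loci by p. The size hardly moved when any library was left out (0.65 to 0.67), but the call did not hold there (limma adjusted p = 0.19 to 0.24). It also ended with a pseudocount of 0.1 (adjusted p = 0.054) and with no filter on low values (adjusted p = 0.062), and over all alternatives the limma adjusted p ran from 0.00041 to 0.24.

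The RIG-I-like helicases detect viral double-stranded RNA in the cytosol. Ddx58, which encodes RIG-I, was 5.67 and 5.77 FPKM in Ch25h_WT and 5.31 and 6.37 FPKM in Ch25h_KO. Ifih1, which encodes MDA5, was 5.99 and 4.89 against 5.13 and 5.04 FPKM. Dhx58, which encodes the regulatory helicase LGP2, was 3.62 and 4.32 against 3.99 and 4.19 FPKM. In all 3 the groups overlapped, and the log2 differences (0.022, -0.076 and 0.039, limma SE 0.086 to 0.095) were smaller than their standard errors. Ddx60, a related helicase, was low at 0.373 and 0.233 against 0.423 and 0.194 FPKM, also with overlap.

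Members of the Ifi200 family bind DNA and neighbour each other on the chromosome. Ifi204 was 39.8 and 41.1 FPKM in Ch25h_WT and 36.3 and 33.9 FPKM in Ch25h_KO, lower in both libraries (log2 difference -0.20, SE 0.062, limma adjusted p = 0.19). Ifi205 was 97.4 and 95.9 against 102 and 101 FPKM, slightly higher in both (0.071, limma adjusted p = 0.48). Neither passed the test. The sequences of this family are similar, so reads may be shared between its loci.

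Double-stranded RNA effectors came next in the pathway. The OAS enzymes sense double-stranded RNA and make short oligoadenylates, which act as an antiviral signal. Oas1a was 13.8 and 16.3 FPKM in Ch25h_WT and 20.1 in both Ch25h_KO libraries, higher without overlap and with most of the spread in Ch25h_WT (log2 difference 0.40, SE 0.090, limma adjusted p = 0.12). Oas1g was 3.30 and 3.57 against 5.17 and 5.27 FPKM, at a ratio of 1.52 and a log2 difference of 0.49 (SE 0.059, limma adjusted p = 0.070). The 2 loci lie side by side and, as their printed promoters show, are near copies, so fragments may be split between them and their levels are uncertain.

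The larger enzymes of the family were less clear. Oas2 was 2.58 and 2.97 FPKM in Ch25h_WT and 2.70 and 3.88 FPKM in Ch25h_KO, where only replicate 2 was above both Ch25h_WT libraries. Oas3, below 1 FPKM on average and not tested, was 0.861 and 0.837 against 0.948 and 1.10 FPKM. The OAS-like genes encode relatives of these enzymes, and both were higher without overlap (23.4% of all loci). Oasl1, a repressor of Irf7 translation, was 4.23 and 4.26 against 5.77 and 5.06 FPKM (log2 difference 0.29, SE 0.073, limma adjusted p = 0.15). Oasl2 was 4.79 and 5.58 against 6.49 and 5.90 FPKM (limma adjusted p = 0.26). Eif2ak2, which encodes the kinase PKR that halts translation, was 6.07 and 6.66 against 5.66 and 6.75 FPKM with overlap, at a locus shared with the predicted gene Gm6548.

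The genes of ISG15 conjugation, which attaches a ubiquitin-like tag to proteins, were all higher in both Ch25h_KO libraries (23.4% of all loci). Isg15 itself was 41.0 and 51.6 FPKM in Ch25h_WT and 67.2 and 66.3 FPKM in Ch25h_KO. The Ch25h_WT libraries differed from each other by more than the Ch25h_KO libraries did, and the log2 difference of 0.53 had an SE of 0.12 (limma adjusted p = 0.12). Herc6, the mouse ligase for ISG15, was 1.73 and 1.95 against 2.34 and 2.39 FPKM (log2 difference 0.25, SE 0.063, limma adjusted p = 0.15). Usp18, which removes the tag and also damps the interferon receptor, was 1.19 and 1.32 against 2.12 and 1.37 FPKM, where Ch25h_KO replicate 2 lay just above Ch25h_WT, so that the log2 difference of 0.27 was 0.072 without Ch25h_KO replicate 1 and 0.47 without replicate 2. None of the 3 members passed the test with limma, and 2 of them had an unadjusted p under 0.05 (9.38% of all loci on this side). The activating enzyme Uba7 (3.14 and 3.01 against 3.72 and 4.20 FPKM) and the conjugating enzyme Ube2l6 (20.3 and 21.3 against 24.1 and 27.2 FPKM) are not among the 40 and were picked out after their values were seen, so they add no count.

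The Ifit proteins bind viral RNA ends and hold back its translation, and their genes form a cluster. All 3 were low. Ifit1 was 1.12 and 0.924 FPKM in Ch25h_WT and 1.76 and 1.11 FPKM in Ch25h_KO, so that the groups overlapped. Ifit2 was 0.154 and 0.0961 against 0.257 and 0.324 FPKM, and Ifit3 was 0.2004 in both Ch25h_WT libraries against 0.389 and 0.364 FPKM. The ratios of group means were 2.33 for Ifit2 and 1.88 for Ifit3, with no overlap. From transcript length and implied depth, these levels correspond to about 4 to 12 fragments per library for Ifit2 and 3 to 7 for Ifit3, so counting error is large.

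Of 7 tested genes of membrane and replication restriction, 3 were higher and 2 lower without overlap (23.4% and 30.3% of all loci). None passed. Ifitm3 was 1155 and 1130 FPKM in Ch25h_WT and 1498 and 1491 FPKM in Ch25h_KO. This difference of 0.39 on the log2 scale (ratio 1.31, SE 0.052) missed the threshold at limma adjusted p = 0.078, and passed among loci averaging 5 FPKM or more (adjusted p = 0.038) and with a spread that follows the level (adjusted p = 0.00034). Ifitm2, the adjacent gene of very similar sequence and no member of the set, was 688 and 683 against 923 and 933 FPKM, and the 2 loci may share fragments. Bst2, which encodes tetherin, a protein that holds budding virus at the cell surface, was 91.0 and 89.8 against 109 and 96.1 FPKM (log2 difference 0.17, limma adjusted p = 0.29), a difference of 0.088 without Ch25h_KO replicate 1 and 0.26 without replicate 2.

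Rsad2, which encodes viperin, an enzyme that makes a chain-terminating nucleotide, was 1.89 and 1.48 FPKM in Ch25h_WT and 2.73 and 2.40 FPKM in Ch25h_KO (log2 difference 0.41, SE 0.098, limma adjusted p = 0.13). Its neighbour Cmpk2, a mitochondrial nucleotide kinase, was 0.434 and 0.452 against 0.556 and 0.532 FPKM, also without overlap. Mx1, a dynamin-like GTPase that blocks viral replication and is known to be defective in most laboratory mouse strains, was 0.125 and 0.117 against 0.491 and 0.434 FPKM. That ratio of 3.83 was the largest of the 40 genes and rested on few fragments, about 4 to 17 per library from transcript length and implied depth, or 9 to 39 from the steps of its own values. With no filter on low values Mx1 had an unadjusted p of 0.0011 and did not pass (limma adjusted p = 0.12). Mx2, beside it in the genome, was 0.195 and 0.0812 against 0.118 and 0.0843 FPKM, with overlap.

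The other restriction factors had differences below 0 that did not pass, and only Samd9l and Slfn8 were lower without overlap. Samd9l, which restricts poxviruses, was 8.24 and 9.30 FPKM in Ch25h_WT and 7.67 and 6.53 FPKM in Ch25h_KO (log2 difference -0.27, SE 0.098, limma adjusted p = 0.22; -0.17 without Ch25h_KO replicate 2 and -0.37 without replicate 1). Slfn8, of the Schlafen family, was 9.96 and 10.4 against 9.66 and 8.81 FPKM, lower without overlap, and Slfn5 was 4.77 and 5.35 against 4.41 and 4.98 FPKM with overlap. Isg20, an exonuclease, was 5.49 and 6.19 against 6.34 and 4.46 FPKM, where the Ch25h_KO libraries bracketed the Ch25h_WT libraries.

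Of 4 nuclear body proteins and regulators, 2 lay lower and 2 higher without overlap (30.3% and 23.4% of all loci), and none passed. Sp100, a scaffold of the nuclear bodies that silence incoming viral DNA, was 14.2 and 13.7 FPKM in Ch25h_WT and 11.1 and 11.6 FPKM in Ch25h_KO. Its log2 difference of -0.27 (SE 0.056, limma adjusted p = 0.12) was the lowest of the set, and it passed with a spread that follows the level (adjusted p = 0.041). Pml, the organizer of the same bodies, was 12.8 and 13.1 against 13.6 and 13.8 FPKM, slightly higher without overlap. Parp14, a mono-ADP-ribosyltransferase, was 12.5 and 12.7 against 10.8 and 10.9 FPKM (log2 difference -0.20, SE 0.052, limma adjusted p = 0.15). Ifi35 was 26.0 and 24.9 against 26.9 and 27.0 FPKM.

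Of the remaining 6 genes none passed. Lgals3bp was 439 and 442 FPKM in Ch25h_WT and 478 and 487 FPKM in Ch25h_KO, and Lgals9, which encodes galectin-9, was 59.9 and 61.4 against 66.1 and 67.0 FPKM. Both were higher without overlap, at ratios of 1.09 and 1.10 and at limma adjusted p = 0.25 and 0.26. Rtp4 was 7.51 and 5.84 against 7.52 and 7.91 FPKM, also higher without overlap, though Ch25h_KO replicate 1 lay just above Ch25h_WT replicate 1. Its difference of 0.19 was 0.034 without Ch25h_WT replicate 2 and 0.35 without replicate 1. Of the 5 tested genes of this group, 3 were thus higher and 0 lower without overlap (23.4% and 30.3% of all loci). Xaf1, an antagonist of the caspase inhibitor XIAP, and Epsti1 overlapped between groups, at log2 differences of 0.046 and -0.091. Ifi44 was 0.0798 FPKM and listed at 0 in Ch25h_WT, and 0.0323 and 0.0346 FPKM in Ch25h_KO.

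**Figure D2:**
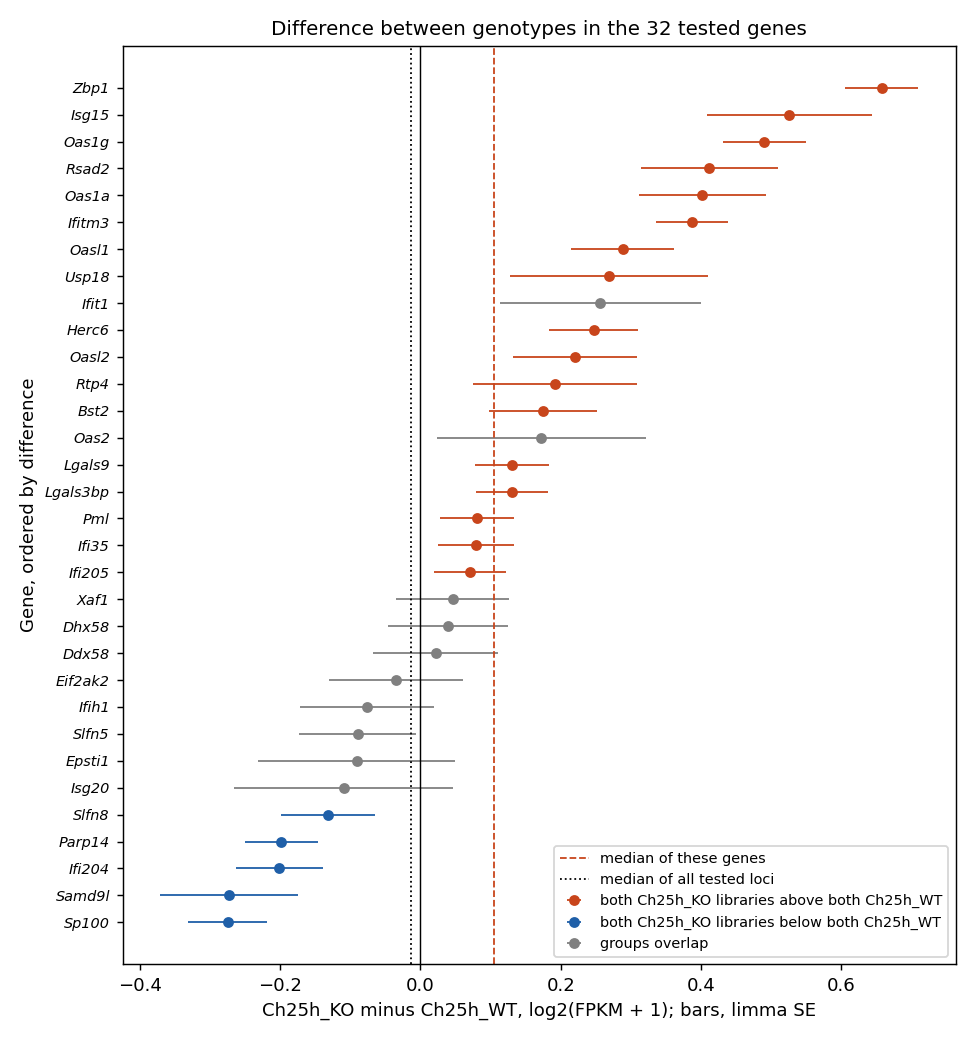
Difference between genotypes for each of the 32 tested genes on the log2(FPKM + 1) scale, with limma standard errors (n = 2 libraries per group). Points run from -0.27 (Sp100) to 0.66 (Zbp1), 17 with both Ch25h_KO libraries above both Ch25h_WT libraries and 5 with both below, and the dashed and dotted lines mark the medians of these genes (0.11) and of all tested loci (-0.014).

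How far single libraries set these values was described by their deviations from the gene means. The median deviation over the 32 genes was -0.074 and -0.047 in the Ch25h_WT libraries and 0.048 and 0.049 in the Ch25h_KO libraries, so both libraries of each group lay on the same side. The median absolute difference between genotypes was 0.18 for these genes, and between replicates it was 0.10 in Ch25h_WT and 0.060 in Ch25h_KO. Over all tested loci the same 3 values were 0.095, 0.070 and 0.078. The genotype value compares means of 2 libraries and the replicate values compare single libraries, so these are unlike measures. Oas1a and Isg15 were lowest in Ch25h_WT replicate 1, Rsad2 and Rtp4 in Ch25h_WT replicate 2, and Usp18 and Ifit1 were highest in Ch25h_KO replicate 1.

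**Figure D3:**
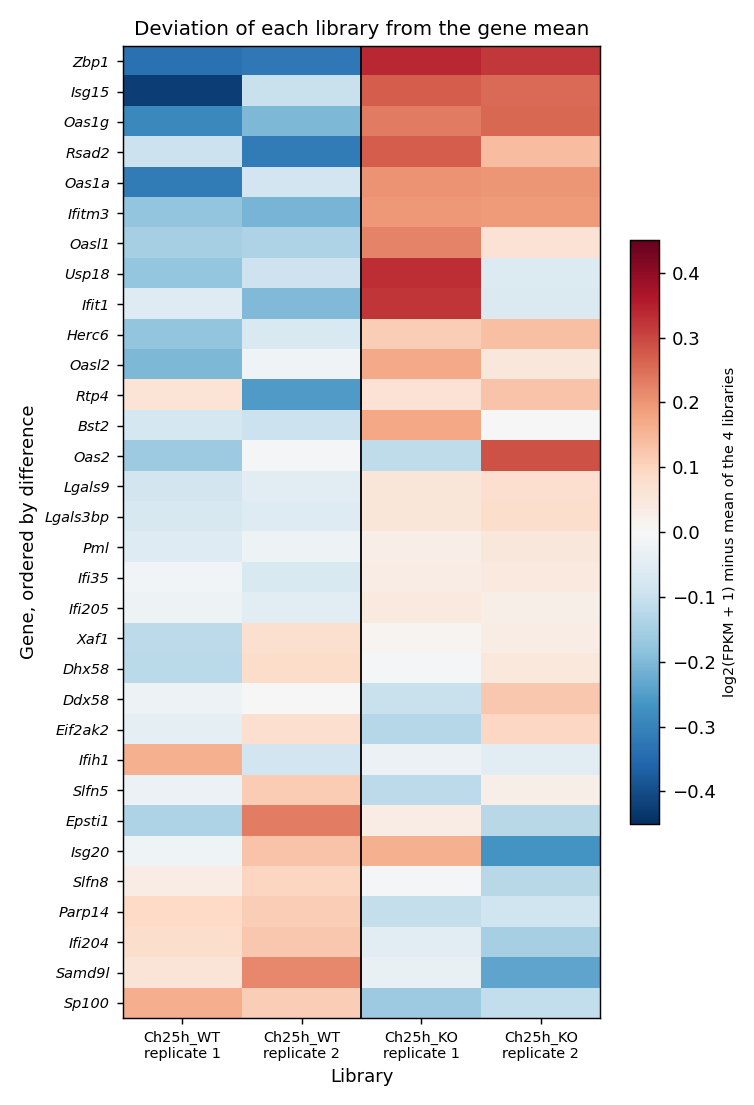
Deviation of each library from the mean of the 4 libraries, as log2(FPKM + 1), for the 32 tested genes ordered by difference between genotypes. Zbp1, Oas1g and Ifitm3 show the same colour in both libraries of a group, whereas Usp18 and Ifit1 are high in Ch25h_KO replicate 1 and Oas2 in Ch25h_KO replicate 2.

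The genes that start and carry the interferon signal were read next, from lists chosen by name with earlier results of these data known. Of 20 type I and type III interferon genes, 18 were listed at 0 in all 4 libraries, Ifnb1 among them, and the summed FPKM of the list was at most 0.195 in a library. The receptor and signalling list had 10 tested genes, none of which passed with limma or had an unadjusted p under 0.05. Ifnar1 was 36.4 and 37.5 FPKM in Ch25h_WT and 33.3 and 33.7 FPKM in Ch25h_KO, lower without overlap (limma adjusted p = 0.24). Ifnar2 was 150 and 151 against 159 and 153 FPKM. Ifngr2, of the interferon gamma receptor, differed by -0.042 on the log2 scale. Of the transcription factors, Stat2 was 6.68 and 7.06 against 7.17 and 7.43 FPKM, and Irf9 was 15.7 and 15.3 against 15.8 and 16.0 FPKM. Their ratios were 1.06 and 1.02, each slightly higher without overlap.

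Irf7, the factor that amplifies type I interferon production and is itself interferon-induced, was 25.9 and 29.0 FPKM in Ch25h_WT and 38.6 and 38.5 FPKM in Ch25h_KO (log2 difference 0.48, SE 0.073, limma adjusted p = 0.097). Tmem173, which encodes the DNA-sensing adaptor STING, was 8.62 and 9.82 against 11.2 in both Ch25h_KO libraries (limma adjusted p = 0.17). In the same list of 17 tested sensors, adaptors and kinases, Tlr9 was 5.71 and 5.67 against 4.73 and 5.06 FPKM and Irf8 was 34.8 and 33.7 against 30.9 and 30.8 FPKM. The list held 0 genes past the threshold with limma, 2 on each side at unadjusted p under 0.05, close to the shares over all loci (9.38% higher, 11.5% lower), and a median log2 difference of -0.028.

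None of 12 tested genes of feedback and nucleic acid control passed with limma or had an unadjusted p under 0.05. Trex1, the nuclease that clears cytosolic DNA, was 57.6 and 59.5 against 53.1 and 54.7 FPKM, and Samhd1, which depletes nucleotides, was 26.4 and 27.5 against 22.8 and 25.7 FPKM. Socs3, a feedback inhibitor of JAK kinases, was 304 and 309 against 327 and 315 FPKM, and Rnaseh2a was 5.47 and 5.37 against 5.41 and 6.55 FPKM.

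A further list of interferon-stimulated genes outside the 40 was spread about 0. Of 39 tested, 0 passed with limma, 5 were higher and 4 lower at unadjusted p under 0.05 (9.38% and 11.5% of all loci), and the median log2 difference was 0.0069. Ifitm2 and Irf7 had the smallest p on the higher side. On the lower side were Ifi203, an Ifi200 gene at 24.7 and 23.9 against 18.6 and 20.3 FPKM, and Parp9, at 9.19 and 9.32 against 7.72 and 7.59 FPKM. Their relatives among the 40 were Ifi204 and Parp14 on the same side and Ifi205 on the other.

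Guanylate-binding proteins and related GTPases, which respond above all to interferon gamma and attack vacuoles of intracellular microbes, had a median log2 difference of 0.17 over 10 tested genes. None passed with limma, and at unadjusted p under 0.05, 6 were higher (9.38% of all loci) and 0 lower (11.5% of all loci). Gbp9, among the 6 and in the median, averaged 0.682 FPKM in Ch25h_WT and 1.37 FPKM in Ch25h_KO. It thus passed the filter of 1 FPKM only through Ch25h_KO. Gbp2 was 50.05 and 52.1 FPKM in Ch25h_WT and 81.0 and 90.5 FPKM in Ch25h_KO (limma adjusted p = 0.052), and Gbp5 was 9.32 and 9.003 against 12.2 in both Ch25h_KO libraries. On the lower side, Irgm2 was 4.83 and 4.37 against 4.35 and 4.09 FPKM and Igtp was 6.52 and 7.21 against 7.25 and 6.06 FPKM. Whether the lists differ from each other was not tested.

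**Figure D4:**
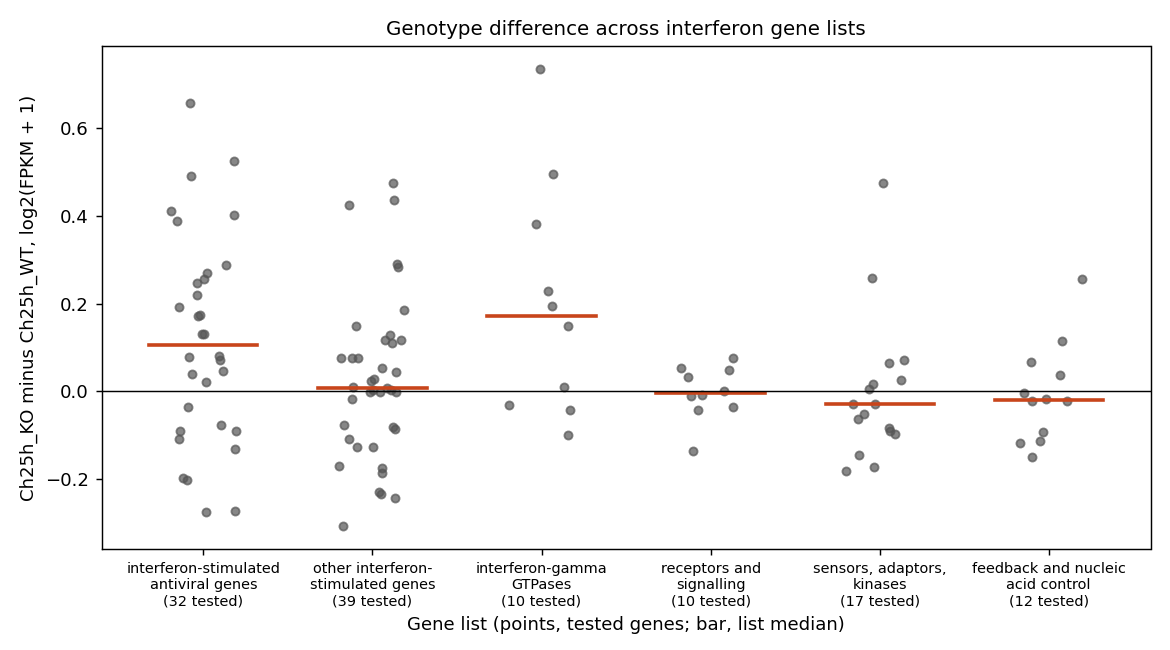
Differences between genotypes on the log2(FPKM + 1) scale for the tested genes of 6 interferon lists (points) with each list's median (bar). Medians were 0.11 for the antiviral genes, 0.0069 for other interferon-stimulated genes, 0.17 for the interferon gamma GTPases, -0.0032 for receptors and signalling, -0.028 for sensors, adaptors and kinases, and -0.020 for feedback and nucleic acid control.

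Markers of the labelled cell type and of other cells were measured beside these results. Of 8 macrophage markers all were present, with Emr1 (F4/80) at 381 to 425 FPKM and Lyz2 at 19566 to 20537 FPKM. Cd14 was higher in Ch25h_KO (5178 and 5288 against 6870 and 6751 FPKM, limma adjusted p = 0.078), as was Fcgr1 (4.31 and 4.22 against 4.83 and 4.78 FPKM). Emr1 (418 and 425 against 381 and 388 FPKM) and Csf1r (306 and 316 against 274 and 291 FPKM) were lower without overlap, and the other 4 overlapped. Of the 8 macrophage markers, 2 were thus higher and 2 lower without overlap (23.4% and 30.3% of all loci). Plasmacytoid dendritic cells are a major source of interferon and express Bst2 constitutively. Their list summed to 77.9 to 81.7 FPKM in Ch25h_WT and 75.8 to 80.1 FPKM in Ch25h_KO, mostly Ly6d, while Siglech was at most 0.0426 FPKM and Klk1 was listed at 0. Its 3 other tested members, Ccr9, Cox6a2 and Tcf4, ranged from 1.44 to 7.93 FPKM. These were higher in both Ch25h_KO libraries (23.4% of all loci) without passing. Ly6d (log2 difference -0.090) and Pacsin1 overlapped between groups. Runx2 was lower without overlap (0.371 and 0.331 against 0.297 and 0.296 FPKM). The T and natural killer cell list summed to 21.1 to 24.4 against 24.3 to 25.9 FPKM, mostly Cd2, with Ifng, the gene of interferon gamma, at most 0.143 FPKM. The 8 monocyte markers summed to 3048 and 3117 against 2709 and 2910 FPKM, mostly Fn1 and F10, which were both lower without overlap. Of them 1 rose, Ly6c2, from 3.12 and 2.70 to 14.3 and 17.3 FPKM (limma adjusted p = 0.012), at a locus similar in sequence to Ly6c1. At unadjusted p under 0.05, 3 of these 8 were higher and 3 lower. The 7 neutrophil markers in the table summed to 73.4 and 83.7 against 117 and 118 FPKM, mostly S100a8. The low neutrophil markers did not share a side, with Ngp (0 in both Ch25h_WT libraries, 0.0911 and 0.292 FPKM in Ch25h_KO) higher, Camp (0.906 and 1.36 against 0.880 and 0.471 FPKM) and Cxcr2 (0.507 and 0.665 against 0.492 and 0.428 FPKM) lower, and Retnlg and Mmp8 overlapping. The 6 mast cell markers summed to 215 and 221 against 147 and 152 FPKM. All 5 tested members were lower without overlap (30.3% of all loci). The 6 B cell markers summed to 319 and 323 against 287 and 302 FPKM. The part of these cells in the differences of the antiviral genes was not tested.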

How the data were processed

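Per the submitters' processing notes, bcl2fastq, TopHat2 2.0.14, Cufflinks 2.2.1 and build mm9 were used; settings, annotation, strand and filters were not given in the sources used here. Per locus and library, the authors deposited 1 value that has the range and form of FPKM (the header names no unit). Such values are not counts, so no count test was run. The 24192 lines were joined into 23735 loci, and 0 sample columns were left out. Depth per library was implied from the smallest steps of low values and GENCODE vM21 transcript lengths, and fragment numbers per gene are approximate.

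The limma package (3.58.1, R 4.3.3) compared genotypes on log2(FPKM + 1) for the 10074 loci averaging 1 FPKM or more, without a replicate term, with Benjamini-Hochberg adjustment over all loci and 0.05 as threshold. Differences on this scale understate the change of low genes. The script was tested on simulated data. The genes and lists were chosen with earlier results of these data known. Every gene of the set is accounted for, with values per library for those with unadjusted p under 0.05 or in a family; from other lists, the 2 smallest p on each side and defining genes are named, and any further gene was chosen after its values were seen. Of the list genes, Rnf213, Ly6g and Trac were not matched to a locus. Alternatives changed the pseudocount (0.1, 0.5), the filter (none, 5 FPKM), the scaling, the model of the spread, the replicate term and the libraries.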

Additional observations from a re-analysis of the deposited data

How the results depend on the processing

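The number of loci passing limma was 44, against 29 with a pseudocount of 0.5, 18 with no filter, 175 among loci of at least 5 FPKM, 786 with a spread that follows the level (trend and robust options), and 13 to 21 with a library left out, where a group holds a lone library assumed to vary like the other. Among the antiviral genes 1 passed, against 0 with a pseudocount of 0.1 (11 at unadjusted p under 0.05), 0 with no filter (16), 0 with any library left out (9 to 12), 2 at 5 FPKM and 5 with the spread that follows the level, of which Oas1a, Oas1g, Ifitm3 and Zbp1 were higher and Sp100 lower. Their median log2 difference of 0.11 was 0.079 at 5 FPKM, 0.12 with median ratio scaling, and 0.086 to 0.14 with a library left out. With the replicate block 6 loci and 0 antiviral genes passed (12 at unadjusted p under 0.05; Zbp1 at adjusted p = 0.14); replicate 1 minus 2 correlated at 0.012 between groups, so nothing shows that equal numbers pair libraries.

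With single libraries left out, 8 genes whose groups overlap changed sign: Ddx58 (-0.091 to 0.13), Ifih1 (-0.20 to 0.046), Dhx58 (-0.063 to 0.14), Oas2 (-0.028 to 0.37), Eif2ak2 (-0.14 to 0.075), Isg20 (-0.32 to 0.10), Xaf1 (-0.049 to 0.14) and Epsti1 (-0.27 to 0.093). The other 24 tested genes kept their sign under every alternative run. For the 17 and 5 genes without overlap, leaving out a library cannot change the sign, so this outcome was fixed in advance. Of the 24, only Ifit1 and Slfn5 overlap and could have changed sign there. The cause of these changes was not tested. Few fragments limit Mx1, Mx2, Ifit2, Ifit3 and Ifi44.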
